A study of Drosophila melanogaster with 12 samples.

Results

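Described here are 8 genes whose levels in heads of CLKGR flies ran against those of the clock gene timeless (tim) when dexamethasone (DEX) was given: CG14567, CG15515, CG14642, stw, dl, yin, CG16713 and CG3604. They are 8 of 12071 genes that have a probe set of their own on at least 1 of the 2 array designs of the study. They were picked because their measured levels were lower with DEX on the arrays with a labelled time, or higher with DEX on a second table of 4 arrays. Both are the reverse of tim on the same arrays. The rule names no cut-off and does not say which table chose which gene, so the DEX differences of these genes on both tables are given as descriptions, without a test. The comparisons between times of day were not part of the rule, and those were tested.

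All 12 arrays hold total RNA from heads of Drosophila melanogaster that carry CLKGR. From the literature of the field, CLKGR joins CLOCK (CLK), a transcription factor of the circadian clock, to the domain through which the glucocorticoid receptor binds its hormone. Cycloheximide (CHX), which blocks protein synthesis, was present in every group, and the groups differ in DEX or its vehicle and in the time of collection. At Zeitgeber time (ZT, hours after lights on) 16 there were 2 DEX and 2 vehicle arrays, and at ZT4 there were 2 DEX arrays and 1 vehicle array. These 7 arrays belong to a table of 8, and no time is labelled for the eighth, which is also vehicle. The 4-array table, of another array design, holds 2 arrays labelled DEX and 2 labelled vehicle, without a labelled time. The sources used here do not name the driver of CLKGR, the age and sex of the flies or the number of heads per array, and flies without CLKGR were not analysed here. Whether replicates came from separate collections of flies is not labelled, and the p-values thus reflect only the spread among these arrays, which may be technical.

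In the fly clock, CLK and its partner CYCLE bind E-box sequences and switch on period and tim, whose protein products later block CLK. A gene driven directly by CLK is expected, as textbook background, to gain transcripts when the fusion is released by a glucocorticoid while CHX keeps new repressor proteins from being made. The 8 genes described here are not members of the core clock. The gene dl encodes Dorsal, an NF-kappaB factor of the Toll pathway, and stw (straw) encodes a laccase that tans the cuticle. A proton-coupled oligopeptide transporter is encoded by yin, and CG14642 encodes a predicted serine protease. CG16713 and CG3604 encode small secreted proteins with a Kunitz domain, a fold that inhibits serine proteases. No role is given here for CG14567 and CG15515.

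Levels are natural logs of the deposited values, read as log2 expression levels, a reading explained in the section on processing, and every log2 change and fold below rests on it. The signal floor was taken as the 40th percentile of the probe set means of each table, which was 2.779 on the 8-array table and 2.924 on the 4-array table, called the filter level here. Probe sets with a mean above it were kept for testing. The fullest part of the distribution of all levels, where probe sets without signal gather, was at 2.55 and 2.85. Belonging to the 8 genes alone were 12 probe sets of the 8-array table, and 9 of them passed the filter, at least 1 for every gene. Each gene has 1 probe set on the other design, and 7 of 8 passed. Where a gene has several, the probe set with the highest mean level on that design is meant unless another is named. One probe set that CG14642 shares with CG34305 was left out.

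As a check of the labelled tissue, markers were compared with the filter level. Photoreceptor markers were above it on both designs, 4 of 4 measured, and so were glial markers, 3 of 3. Of the 4 neuronal markers measured on the 8-array design, brp was below it and the other 3 above. Ovary and testis markers were close to it or under it, with medians of 2.83 and 2.75 on the 8-array table. Midgut markers were above it, 3 of 3 on each design. Their summed level, defined further below, varied widely between timed arrays, from 6.40 to 10.87 at ZT16 and from 7.85 to 10.65 at ZT4. What part this has in the members' values was not tested. The mean correlation of an array with the others of its table lay between 0.945 and 0.977, and the lowest was that of vehicle ZT16 replicate 1.

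The gene against which these genes are set, tim, had levels of 9.42 and 8.21 on the DEX arrays at ZT16 and of 10.58 and 10.30 on those at ZT4, against 5.49 and 6.43 on the vehicle arrays at ZT16 and 6.70 at ZT4. The 4-array table gave tim levels of 3.98 and 4.05 on the arrays labelled DEX, against 7.77 and 7.87 on those labelled vehicle. The direction of tim thus differed between the tables, and every direction given for the 4-array table depends on its labels as deposited.

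CG14567 and CG15515 were the members with the widest gap between DEX and vehicle on the timed arrays, and both lay far above the filter level. CG14567 had levels of 9.09 and 7.91 on the DEX arrays at ZT16 and of 8.59 and 8.44 on those at ZT4, against 10.16 and 9.60 on the vehicle arrays at ZT16 and 10.27 at ZT4. All 4 DEX arrays were below all 3 vehicle arrays. The difference adjusted for time was -1.53 ± 0.32 (SE) on the log2 scale, or 2.89-fold lower with DEX, the third most negative of 11261 kept probe sets. Its DEX mean of 8.51 ± 0.48 (SD, n = 4) still lay 5.73 above the filter level, against 7.23 for its vehicle mean of 10.01 ± 0.36 (SD, n = 3). In whole heads, fewer cells of a type and less RNA per cell cannot be told apart, here and in what follows.

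CG15515 had levels of 5.23 and 5.17 on the DEX arrays at ZT16 and of 4.43 and 4.87 on those at ZT4, against 6.74 and 5.93 on the vehicle arrays at ZT16 and 6.27 at ZT4. Its groups did not overlap either, and the gap between them was wider at ZT4 than at ZT16. The difference was -1.33 ± 0.27 (SE), or 2.51-fold lower with DEX. The DEX mean of 4.93 lay 2.15 above the filter level and the vehicle mean 3.54 above it, so both sides of this difference were measured above the floor.

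CG14642 and stw had small differences close to the floor. The protease gene CG14642 had levels of 3.02 and 3.12 on the DEX arrays at ZT16 and of 3.02 and 3.11 on those at ZT4, against 3.41 and 3.39 on the vehicle arrays at ZT16 and 3.63 at ZT4. The 2 groups did not overlap, yet the DEX mean lay only 0.29 above the filter level and the vehicle mean 0.70 above it. The difference was -0.42 ± 0.10 (SE), or 1.34-fold lower. A second probe set of CG14642 lay under the filter level with both means, 2.74 with DEX and 2.73 with vehicle.

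For the laccase gene stw the levels were 2.81 and 2.86 on the DEX arrays at ZT16 and 2.72 and 2.92 on those at ZT4, against 3.15 and 3.38 on the vehicle arrays at ZT16 and 3.63 at ZT4. All DEX arrays were below all timed vehicle arrays, but the DEX mean was 0.05 above the filter level, and DEX ZT4 replicate 1 was below it. The difference was -0.58 ± 0.12 (SE). Its size is uncertain, since the DEX arrays have no clear signal. The other 2 probe sets of stw did not pass the filter, with DEX means of 2.57 and 2.49 and vehicle means of 2.83 and 2.59.

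The transporter gene yin and the NF-kappaB gene dl had moderate levels. For yin these were 5.83 and 5.08 on the DEX arrays at ZT16 and 5.47 and 5.97 on those at ZT4, against 6.28 and 6.27 on the vehicle arrays at ZT16 and 6.60 at ZT4. The DEX arrays were all lower, and they were more spread (SD 0.40, n = 4) than the vehicle arrays (SD 0.19, n = 3). The difference was -0.84 ± 0.25 (SE), or 1.79-fold lower, with both means at least 2.81 above the filter level.

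For dl, the 2 probe sets gave different pictures. The one with the higher mean had levels of 6.17 and 6.0 on the DEX arrays at ZT16 and of 6.20 and 5.94 on those at ZT4, against 6.36 and 7.05 on the vehicle arrays at ZT16 and 6.41 at ZT4. Its groups did not overlap, but the gap between the closest DEX and vehicle arrays was narrow. Its difference of -0.51 ± 0.24 (SE) became -0.31 without vehicle ZT16 replicate 2, the highest array. The second probe set had levels of 5.95, 5.11, 6.20 and 5.72 on the DEX arrays in the same order, against 4.81, 5.79 and 6.04 on the vehicle arrays. These overlap, and the difference was 0.11 ± 0.33 (SE). Both probe sets had DEX and vehicle means at least 2.77 above the filter level.

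The Kunitz genes CG16713 and CG3604 had overlapping groups on the timed arrays. CG16713 had levels of 8.0 and 7.93 on the DEX arrays at ZT16 and of 8.72 and 9.01 on those at ZT4, against 8.52 and 9.13 on the vehicle arrays at ZT16 and 9.30 at ZT4. Within each time the DEX arrays were the lower ones, and the difference adjusted for time was -0.69 ± 0.23 (SE), or 1.61-fold lower. CG3604 had levels of 7.19 and 6.80 on the DEX arrays at ZT16 and of 7.94 and 8.06 on those at ZT4, against 6.73 and 7.36 on the vehicle arrays at ZT16 and 7.89 at ZT4. Here the groups overlapped at ZT16, and the difference was 0.01 ± 0.24 (SE). CG3604 thus did not run against tim on the timed arrays.

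**Figure D1:**
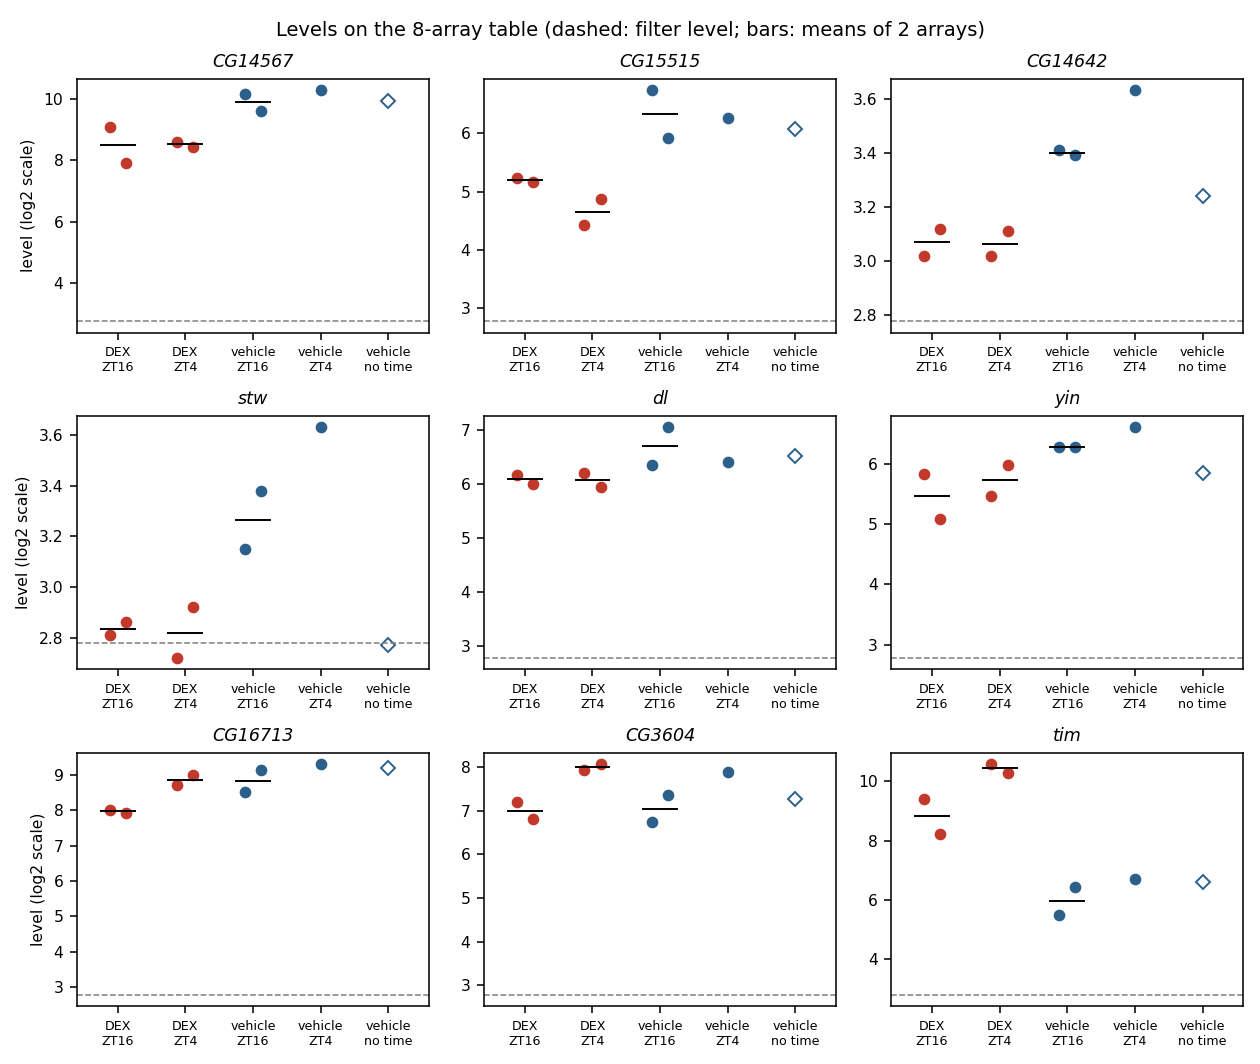
Levels of the 8 genes and of tim on the 8-array table, on the log2 scale, with 1 point per array, red for DEX and blue for vehicle, the open diamond for the vehicle array without a labelled time, and a bar for the mean of 2 arrays. The vertical axes differ between panels, and the dashed line is the filter level of 2.779. DEX points lie below the timed vehicle points for CG14567, CG15515, CG14642, stw, dl and yin, whereas tim has the reverse order.

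On the timed arrays, 6 of the 8 genes had all DEX arrays below all vehicle arrays, dl only at its probe set with the higher mean. This pattern was shown by 2.52% of the 11261 kept probe sets. The estimate was negative for 7 of 8, against 54.3% of all kept probe sets. Since the genes were picked on this contrast, nothing is read from these counts. CG14567 was low where tim was high when the groups are compared, but not within the DEX arrays: DEX ZT16 replicate 2 had the lowest level of both. The vehicle array without a labelled time was not used in the contrast. On it CG14567 had 9.91, CG15515 6.07, CG14642 3.24, dl 6.52 and CG16713 9.20, each above all 4 DEX arrays, as 18.8% of all kept probe sets were. The remaining 3, stw with 2.77, yin with 5.84 and CG3604 with 7.27, lay within the range of the DEX arrays. Among all 284 kept probe sets with every DEX array below every timed vehicle array, 44.7% had this array above all DEX arrays. Of the 6 genes with that pattern, CG14567, CG15515, CG14642 and dl had it there.

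The 4-array table gives a second set of DEX and vehicle arrays, on another design with other probes. CG16713 and CG3604 had the largest differences among the 8 genes here. CG16713 had levels of 7.23 and 7.14 on the arrays labelled DEX, against 5.41 and 5.07 on those labelled vehicle. The difference was 1.94 ± 0.23 (SE), or 3.84-fold higher, the most positive of 8379 kept probe sets. CG3604 had levels of 6.23 and 5.66 on the arrays labelled DEX, against 4.30 and 4.31 on those labelled vehicle. Its difference was 1.65 ± 0.24 (SE), or 3.13-fold higher, and both of its means were at least 1.38 above the filter level.

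For dl and yin the vehicle means were near the floor. For dl the levels were 4.62 and 4.61 on the arrays labelled DEX, against 3.08 and 3.19 on those labelled vehicle, a difference of 1.48 ± 0.12 (SE). The replicates lay close together, while the vehicle mean was only 0.21 above the filter level. For yin the levels were 3.75 and 3.64 on the arrays labelled DEX, against 2.77 and 2.86 on those labelled vehicle, a difference of 0.88 ± 0.09 (SE). Its vehicle mean was 0.11 below the filter level, so the sizes for both genes are uncertain.

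CG14567 had levels of 8.31 and 8.02 on the arrays labelled DEX, against 7.28 and 7.13 on those labelled vehicle, a difference of 0.97 ± 0.25 (SE) or 1.95-fold higher. It was the member farthest above the filter level on this table, by 5.25 with DEX and 4.28 with vehicle. CG15515 had levels of 4.82 and 4.40 on the arrays labelled DEX, against 4.37 and 4.32 on those labelled vehicle. Its groups lay next to each other without overlap, and the difference of 0.27 ± 0.19 (SE) was 0.06 without DEX replicate 1 and 0.48 without DEX replicate 2. CG14642 had levels of 3.38 and 3.33 on the arrays labelled DEX, against 3.35 and 3.84 on those labelled vehicle, and the groups overlapped. It was near the floor here too, with a DEX mean 0.43 and a vehicle mean 0.67 above the filter level. The laccase gene stw lay under the filter level on all 4 arrays, with levels of 2.07 and 2.08 on the arrays labelled DEX, against 2.09 and 2.17 on those labelled vehicle.

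**Figure D2:**
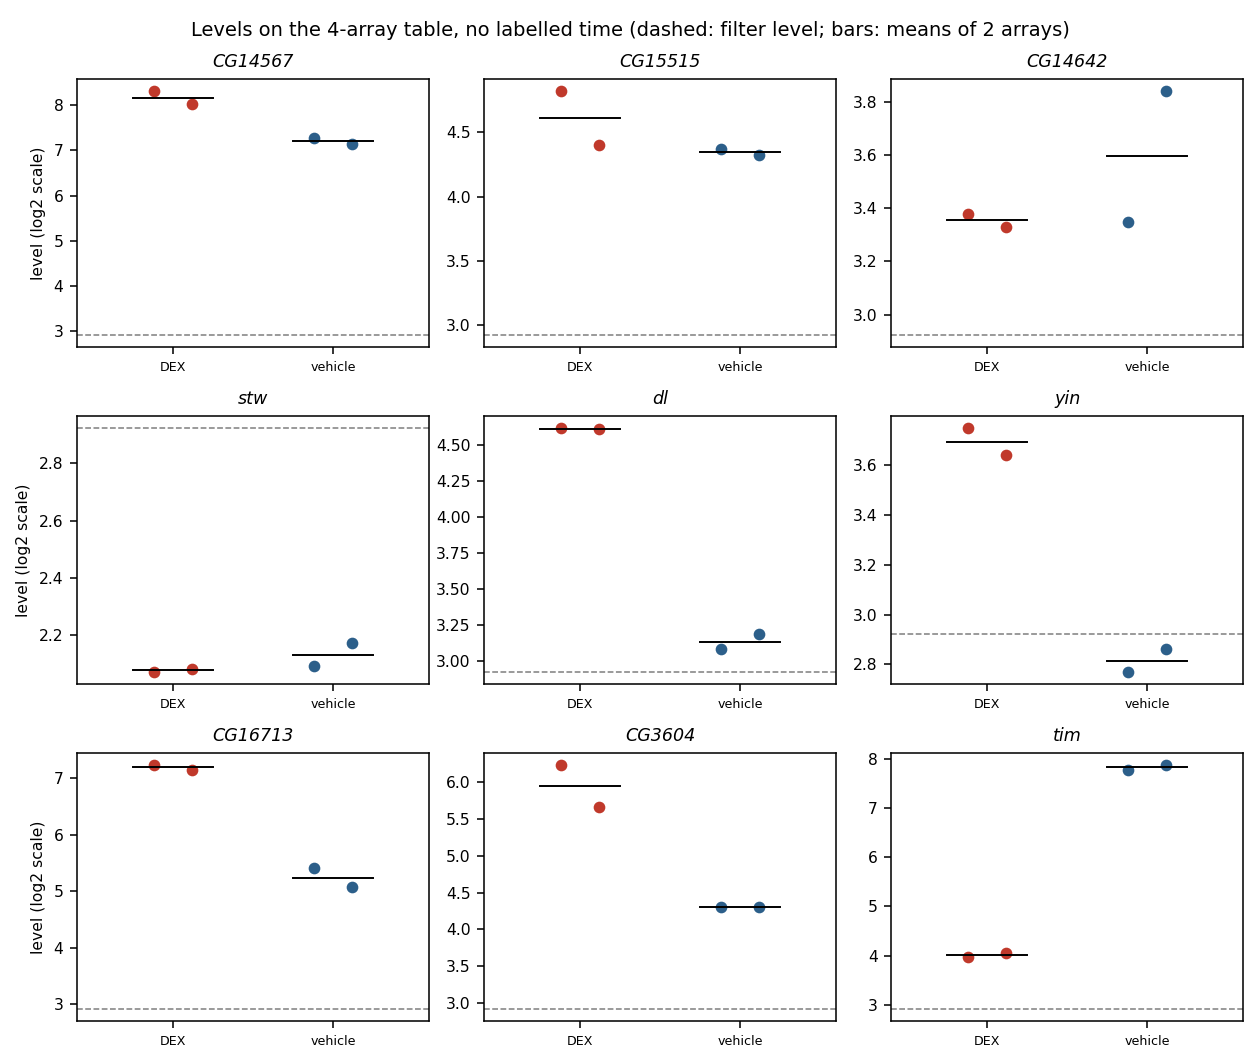
Levels of the 8 genes and of tim on the 4-array table, on the log2 scale, with 1 point per array, red for the arrays labelled DEX and blue for those labelled vehicle, and a bar for the mean of 2 arrays. The vertical axes differ between panels, and the dashed line is the filter level of 2.924. CG14567, dl, yin, CG16713 and CG3604 are clearly higher on the arrays labelled DEX, CG15515 barely so, and tim is lower.

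In all, 6 of the 8 genes had both arrays labelled DEX above both vehicle arrays, against 12.1% of all kept probe sets of this table, and again nothing is read from a count on a contrast the rule used. The opposite order, both DEX arrays lower, was found for 31.4% of probe sets. The hybridization control bioB, a bacterial transcript spiked in before hybridization, read 9.35 and 9.39 on the arrays labelled DEX, against 9.98 and 10.04 on those labelled vehicle, and bioC and bioDn were lower there too. The 6 genes therefore lay higher on arrays on which these controls read lower, whereas CG14642 and stw did not. Haemocyte markers had a lower summed level there as well, 5.60 to 5.61 on the arrays labelled DEX against 5.67 to 5.74 on those labelled vehicle. Of these markers 5 of 6 were above the filter level and PPO2 below it, with a median of 3.06, close to that level. The order was not particular to haemocytes. Ovary markers had 4.78 to 4.80 against 4.84 to 5.14, and testis markers 4.71 to 4.74 against 4.75 to 4.82, both with medians under the filter level. Markers of neurons, photoreceptors, glia, muscle and midgut overlapped between the groups. A summed level is the log2 of the sum of the markers' levels after undoing the log. Fat body markers, with 5 of 5 above the filter level, overlapped between the groups, at 13.49 to 14.60 against 13.20 to 14.26. What part these differences have in the members' values was not tested.

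Set side by side, 5 of the 8 genes were lower with DEX on the timed arrays and higher with DEX, as labelled, on the 4-array table: CG14567, CG15515, dl, yin and CG16713. Among the 5514 genes kept on both designs 21.0% had this pair of signs, and 27.9% were lower with DEX on both tables as labelled. With the labels of the 4-array table exchanged, the 5 genes and the 21.0% would be those lower on both tables. The second probe set of dl had 0.11 ± 0.33 (SE) on the timed arrays, so dl is counted here by its probe set with the higher mean. The 2 tables share no array. For CG14567 the differences were -1.53 and 0.97, for yin -0.84 and 0.88, for CG16713 -0.69 and 1.94, and for tim 3.21 and -3.80. Further probe sets of tim had 3.51 on the timed arrays, and -2.11 and -0.14 on the 4-array table, the last of these near the filter level. The direction of tim was thus the same at each probe set of a table, but its size was not. The other 3 genes ran against tim on 1 table only. CG3604 had 0.01 on the timed arrays and 1.65 on the 4-array table, whereas CG14642, near the floor on both, had -0.42 and -0.24. The second value rests on vehicle replicate 3, at 3.84, and was 0.0061 without that array and -0.49 without vehicle replicate 2. For stw, with -0.58 and -0.05, the 4-array table gave no level above the floor. These differences come from 2 designs whose probes differ, and no test was made across them.

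**Figure D3:**
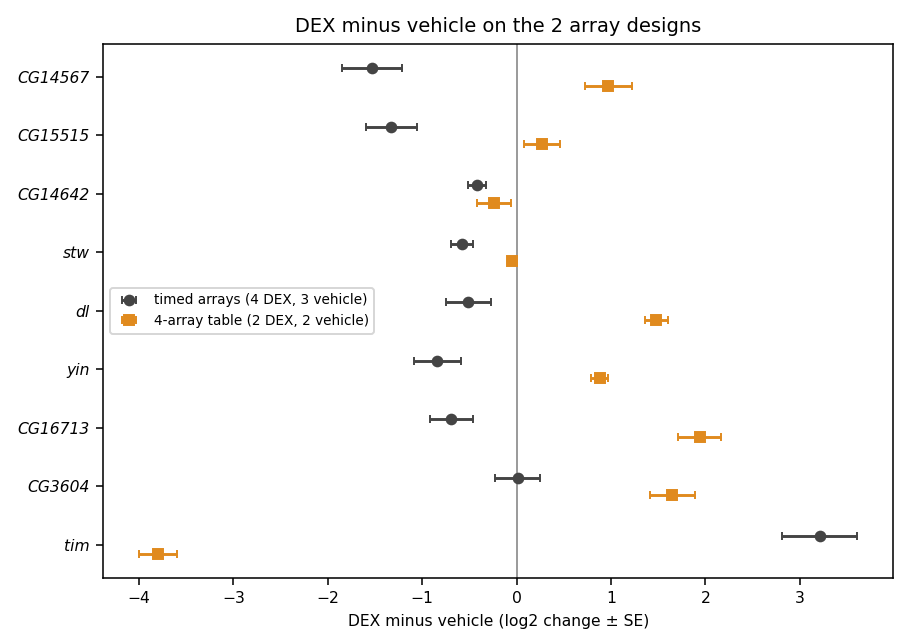
Difference between DEX and vehicle (log2 change, points with SE bars) for the 8 genes and tim, dark circles for the timed arrays (4 DEX, 3 vehicle) and orange squares for the 4-array table (2 DEX, 2 vehicle). Only CG14567, CG15515, dl, yin and CG16713 among the 8 genes lie left of 0 on the timed arrays and right of 0 on the 4-array table, and tim lies at 3.21 and -3.80.

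The comparison of night (ZT16) with day (ZT4) was not used by the rule, but it rests on the same arrays as the timed DEX contrast. With 2 DEX arrays and 1 vehicle array at ZT4, the estimates of time and DEX are not independent. Picking genes lower with DEX can push their time estimates down. CG3604 was the member with the smallest p. Its levels at ZT16 were 7.19 and 6.80 with DEX and 6.73 and 7.36 with vehicle, against 7.94 and 8.06 with DEX and 7.89 with vehicle at ZT4. All 4 arrays of ZT16 were below all 3 arrays of ZT4, a pattern found in 2.25% of all kept probe sets and in none of the other 7 genes. The time effect was -0.94 ± 0.24 (SE) in limma, with an unadjusted p of 0.00512 and an adjusted p of 0.990 over all 11261 kept probe sets. It did not pass.

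The neighbouring Kunitz gene CG16713 had a time effect of -0.73 ± 0.23 (SE) in limma, with an unadjusted p of 0.0157 and an adjusted p of 0.990, and it did not pass either. Its DEX arrays at ZT16 were the lowest of the table, while vehicle ZT16 replicate 2 lay within the range of the ZT4 arrays. At an unadjusted p under 0.05 there were thus 2 of 8 genes, both lower at ZT16, against 3.57% of all kept probe sets in either direction and 1.99% lower. None of the 11261 kept probe sets passed the adjusted threshold (0.0%).

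The remaining 6 genes had time effects between -0.29 and 0.36 at the probe set with the highest mean, each under 1.5 times its SE. With the Kunitz genes, 6 of 8 estimates were negative, against 45.3% of all kept probe sets. These were 0.36 ± 0.27 (SE) for CG15515, 0.13 ± 0.24 for dl and -0.09 ± 0.10 for CG14642. The second probe set of dl had -0.55 ± 0.33, of the opposite sign. For stw the value was -0.14 ± 0.12, for CG14567 -0.16 ± 0.32 and for yin -0.29 ± 0.25. The median over the 8 genes was -0.15, against 0.016 over all kept probe sets. Photoreceptor and neuronal markers were higher at ZT16, the reverse of the Kunitz genes. The summed level of the 4 photoreceptor markers was 11.04 to 11.68 at ZT16 against 10.66 to 10.75 at ZT4, and that of the 4 neuronal markers 7.06 to 7.39 against 6.85 to 6.94. Fat body markers overlapped, at 14.88 to 16.11 against 15.18 to 16.23, as did haemocyte markers, at 5.92 to 6.18 against 6.11 to 6.47, with 5 of 6 above the filter level and eater below it. The part of these in the time effects was not tested.

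The difference of the DEX effects, that at ZT16 minus that at ZT4, asks whether the members responded alike at both times. None of the 8 passed in limma, with an adjusted p of 0.997 for each, and none had an unadjusted p under 0.05, against 2.72% of all kept probe sets. The estimate was negative for 3 of 8, dl, CG16713 and CG3604, against 54.8% of all kept probe sets. For CG14567 the DEX difference was -1.38 ± 0.44 (SE) at ZT16 and -1.76 ± 0.54 at ZT4, and the difference between these was 0.38 ± 0.70. CG15515 had -1.13 ± 0.36 at ZT16 and -1.63 ± 0.44 at ZT4. The SE of this difference ran from 0.19 for CG14642 to 0.70 for CG14567, with 1 vehicle array at ZT4. A p above the threshold does not show that the effects were alike.

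**Figure D4:**
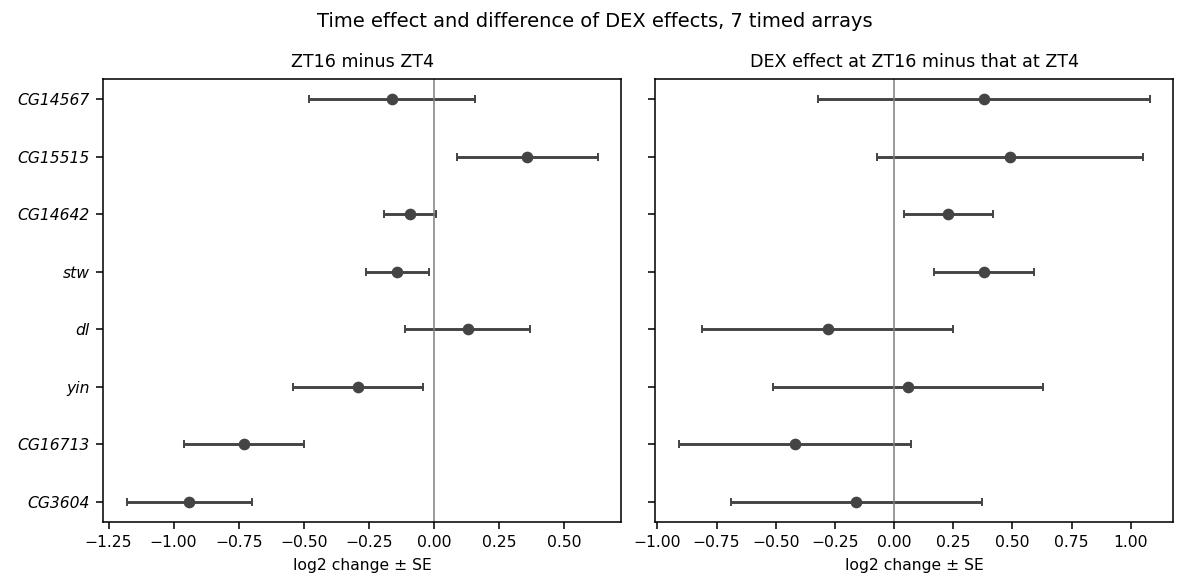
Left, the difference between ZT16 and ZT4 adjusted for treatment, and right, the DEX effect at ZT16 minus that at ZT4, for the 8 genes on the 7 timed arrays (log2 change, points with SE bars). CG3604 at -0.94 and CG16713 at -0.73 lie farthest from 0 on the left, and no gene passed the adjusted threshold in either panel.

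CG16713 and CG3604 lie on chromosome arm 2L with 1 gene between them in the RefSeq gene table, IM33, an immune-induced Kunitz gene. CG10031, of the same family, follows CG3604. IM33 had levels of 10.76 and 11.04 on the DEX arrays at ZT16 and of 10.41 and 11.20 on those at ZT4, against 11.50 and 10.68 on the vehicle arrays at ZT16 and 11.53 at ZT4. These overlapped, with a difference of -0.40 ± 0.29 (SE). For the 4-array table the values of IM33 were 10.61 and 10.86 on the arrays labelled DEX, against 10.31 and 10.02 on those labelled vehicle, or 0.57 ± 0.20. The groups did not overlap there, in the same direction as its neighbours but with a smaller difference. CG10031 had differences of -0.04 ± 0.26 on the timed arrays and 0.26 ± 0.14 on the 4-array table. The time effect of IM33 was -0.12 ± 0.29 and that of CG10031 -0.05 ± 0.26.

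**Figure D5:**
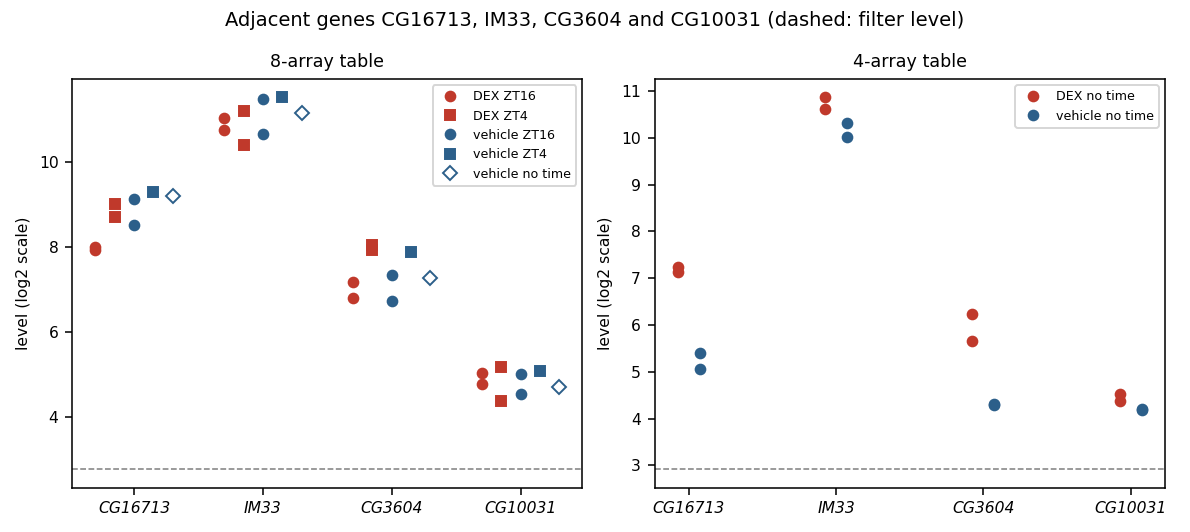
Levels of the adjacent genes CG16713, IM33, CG3604 and CG10031 on the log2 scale, 1 point per array, with the 8-array table on the left (circles for ZT16, squares for ZT4, the open diamond for no labelled time) and the 4-array table on the right, red for DEX and blue for vehicle, and the filter level dashed. On the 4-array table CG16713 and CG3604 show gaps of 1.94 and 1.65 between the groups, against 0.57 for IM33 and 0.26 for CG10031. Levels of different genes come from different probes and are not to be compared.

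Of the 11 Kunitz genes listed, 9 were kept on the 8-array table, and 0 passed for time in limma, with 3 at an unadjusted p under 0.05, all lower at ZT16, against 1.99% of all kept probe sets. There 7 had negative time effects, against 45.3% of all kept probe sets, and the median was -0.12, against 0.016. CG3604 and CG16713 are included in these counts, and both were already counted among the members against the same shares. Nothing further is thus read from these counts. Beside CG3604 and CG16713, the third of these was the papilin gene Ppn, named after its value was seen, which encodes a matrix protein with Kunitz domains and had -0.69 ± 0.22 (SE). Of the same list, 6 were kept on the other design, 2 of them CG16713 and CG3604. Among the other 4, which the rule did not choose, 3 had positive DEX differences, and the median was 0.18, against -0.048 over all kept probe sets, of which 36.5% were positive.

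Values of the other neighbours are given where a probe set of their own was kept. CG14566, next to CG14567, did not pass the filter on either design. The neighbours of CG15515, CG15517 and CG31036, had no probe set above it on the 8-array design. On the 4-array table they had differences of -0.07 ± 0.14 (SE) and -0.12 ± 0.08, and CG31036 was near the filter level there. Gel, an actin-binding gelsolin gene next to CG14642, had -0.09 ± 0.24 and 0.16 ± 0.16. CG33928, next to dl, had -0.07 ± 0.13 on the timed arrays, and CG30440, next to stw, had -0.13 ± 0.11 there and -0.17 ± 0.09 on the 4-array table. CG33928 and CG30440 were near the filter level wherever these values are given. On the other side of stw, lncRNA:CR42646 had 0.12 ± 0.24 on the timed arrays and has no probe set of its own on the other design. CG2930 adjoins yin and belongs to the same transporter family. Its timed DEX difference was 0.33 ± 0.30, against -0.84 for yin, and on the 4-array table it had 0.74 ± 0.39, with overlapping groups. The third transporter listed, CG9444, had 0.12 ± 0.10 on the timed arrays, where it is near the filter level, and -0.13 ± 0.12 on the 4-array table. Of these 3 transporters 0 passed for time in limma, 0 at an unadjusted p under 0.05. All 3 had negative time effects, -0.63 ± 0.30 for CG2930 and -0.18 ± 0.10 for CG9444, against 45.3% of all kept probe sets.

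For dl, the listed genes of the Toll and NF-kappaB pathways give the context. On the timed arrays 18 of 24 were kept. Among the 17 other than dl, 10 had negative and 7 positive DEX differences, and the median was -0.06. Over all kept probe sets 54.3% were negative, and the median was -0.015. For time 0 passed in limma, 0 at an unadjusted p under 0.05, with 10 positive and 8 negative, and the smallest p-values were those of the protease gene SPE, at 0.46 ± 0.37 (SE), and of the adaptor gene Myd88, at 0.35 ± 0.29. In the other design 19 were kept. Among the 18 other than dl, 13 had positive DEX differences, and the median was 0.09, against -0.048 over all kept probe sets, of which 36.5% were positive. The following were named after their values were seen. On the 4-array table cact, which encodes the inhibitor that holds Dorsal in the cytoplasm, had 0.94 ± 0.30, and the serpin gene nec had 0.92 ± 0.26. The NF-kappaB gene Rel had 1.42 ± 0.59, with levels of 7.51 and 7.73 on the arrays labelled DEX, against 7.11 and 5.29 on those labelled vehicle. Its vehicle arrays lay far apart, and its difference was 0.51 without vehicle replicate 3, against 2.33 when vehicle replicate 2 was left out, while that of cact was 0.62 without vehicle replicate 3. On the timed arrays cact had -0.02 ± 0.37, nec -0.24 ± 0.26 and Rel -0.49 ± 0.35. The ligand gene spz had 0.73 ± 0.30 there, opposite in sign to dl.

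For stw, the listed genes of cuticle tanning had 12 kept members of 21 on the 8-array table. Among the 11 other than stw, 8 had negative DEX differences, and the median was -0.18, against -0.015 over all kept probe sets, of which 54.3% were negative. For time 0 passed in limma, 0 at an unadjusted p under 0.05, and the smallest p-values were those of yellow-e, at 0.35 ± 0.23 (SE), and yellow-d, at -1.57 ± 1.18. Among the probe sets of the other design 13 were kept, 8 with positive differences and a median of 0.13. Over all kept probe sets of that design 36.5% were positive, and the median was -0.048. The laccase gene stw was not among those kept there.

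Across all 8 arrays of the 8-array table, the levels of 7 members other than CG3604 correlated with each other with a Pearson r between 0.31 and 0.92, over 21 pairs. The highest was that of CG14642 with stw, which both lay near the floor. CG3604 correlated with the other 7 with r between -0.46 and 0.60, and the highest was that with its neighbour CG16713. The r with tim was -0.96 for CG15515, -0.81 for CG14642 and -0.77 for CG14567. It was weaker for dl at -0.65, stw at -0.59, yin at -0.54 and CG16713 at -0.29, and it was 0.54 for CG3604. These are descriptions over 8 arrays that share the DEX and vehicle groups by which the genes were picked.

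The gene most like each member by Pearson r over the 8 arrays was also named. For CG14567 it was the zinc transporter gene Zip89B, with r = 0.936. Zip89B had levels of 5.62 and 3.93 on the DEX arrays at ZT16 and of 4.46 and 4.34 on those at ZT4, against 6.36 and 6.17 on the vehicle arrays at ZT16 and 5.92 at ZT4. Its groups did not overlap, and DEX ZT16 replicate 2 was its lowest array, as for CG14567. Zip89B was chosen by its correlation over these same arrays, so this likeness largely follows from the choice. The 4-array table gave Zip89B 5.22 and 4.67 on the arrays labelled DEX, against 3.56 and 3.63 on those labelled vehicle, a difference of 1.35. For yin the most similar gene was the receptor gene Egfr (r = 0.965), for CG16713 the cytochrome P450 gene Cyp4p1 (0.929), and for CG3604 the tRNA synthetase gene GluProRS (0.941). For dl it was Rcd2 (0.965), for stw the translation factor gene eEF5 (0.970), and for CG15515 and CG14642 brat (0.928) and fuss (0.987), both near the filter level.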

How the data were processed

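The authors deposited intensity values made with GCRMA, per the submitters' processing notes, in 2 tables; the sources used here name no version, settings or probe set definitions. The highest deposited values, 5374153 and 3300359, exceed the 65535 of a 16-bit scanner, and natural logs ran from 1.84 to 15.50 and from 0.97 to 15.01, the range of GCRMA log2 levels, so natural logs were read as log2 levels, a scale settled after seeing values.

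Control probe sets were left out, and probe sets with a mean above the 40th percentile kept (11261 and 8379). Names came from the platform annotation, updated through the RefSeq gene table (Release 6 plus ISO1 MT); no coordinates are given, since no build is named. Fits used limma 3.58.1 in R 4.3.3 (trend; Benjamini-Hochberg over kept probe sets, threshold 0.05): time plus treatment over 7 arrays, 1 mean per treatment and time for the difference of DEX effects, and treatment over the 4 arrays. They were also run on simulated data, with changes larger than any difference of the members. Those runs do not show how well differences of the members' sizes are recovered. The number of arrays limits precision.

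The members, gene lists, markers and tests were chosen with earlier results of these data known. All 8 members are named, with tim, the most correlated gene and nearest neighbours of each, and 2 genes per list by time p. Protein similarity, serine proteases by sequence and promoter motifs were not analysed here.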

Additional observations from a re-analysis of the deposited data

Results flagged for a closer look

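A second probe set of stw is listed because its DEX estimates differed between the times. They were -0.46 ± 0.13 (SE) at ZT16 and 0.08 ± 0.16 at ZT4, so no movement with DEX was shown at ZT4. The probe set read 2.52 and 2.54 on the DEX arrays at ZT16, against 3.17 and 2.79 on the vehicle arrays at ZT16. At ZT4 it read 2.66 and 2.54 on the DEX arrays and 2.52 on the vehicle array, all under the filter level. The DEX effect at ZT16 minus that at ZT4 was -0.54 ± 0.20 (SE) in a fit without the filter, since its mean lay under the filter level of 2.779. The difference was not tested among the kept probe sets. No member was singled out by a test of the difference between times.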

How the results depend on the processing

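No probe set passed for time, or for the difference of DEX effects between times, in limma under any alternative that could be run, and the counts at an unadjusted p under 0.05 were 402 and 306 as reported and 393 and 199 with a replicate block. Those for time were 676 with array weights, 627 without DEX ZT16 replicate 2 and 252 when DEX ZT4 replicate 1 was left out, and those for the difference of DEX effects were 1263 and 607 without vehicle ZT16 replicate 2 and 1, 580 without DEX ZT16 replicate 1, 585 with no filter and 170 with a filter at the 60th percentile. The tests with no filter and with the filter at the 60th percentile covered 18769 and 7508 probe sets, against 11261 as reported. Same-numbered arrays did not deviate together (r of -0.244 to 0.073 between groups), so the replicate numbers were not taken as pairs. The block changed no call. On the 4-array table no paired analysis was possible because the groups share 1 number. Leaving out 1 array at a time, the time effect changed sign for CG14567 (-0.50 to 0.09, without DEX ZT16 replicate 2), for CG14642 (-0.13 to 0.0073) and stw (-0.23 to 0.01, both without the ZT4 vehicle array) and for dl (-0.0036 to 0.22, without vehicle ZT16 replicate 2). The difference of DEX effects did so for CG14567 (-0.21 to 0.97, without DEX ZT16 replicate 1), dl (-0.62 to 0.07) and CG3604 (-0.48 to 0.15, both without vehicle ZT16 replicate 2, and 0.03 for CG3604 without DEX ZT16 replicate 2) and yin (-0.32 to 0.44, without DEX ZT16 replicate 1, and -0.19 without DEX ZT4 replicate 1). With quantile normalization that of yin was -0.11. The cause was not tested. Of the 8 genes, 7 to 8 were lower on the timed arrays and 6 to 7 higher on the 4-array table whichever single array was left out. With log2 of the deposited values every difference and SE would be 1.44 times as large. The difference of DEX effects could not be fitted without the ZT4 vehicle array.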
